A study of Mus musculus with 12 samples.

Results

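The genes described are 9 that are linked to the transcriptional regulator YAP and to the response of tissue to injury: Ctgf, Cyr61, Ankrd1, Amotl2, Thbs1, Emp1, Igfbp3, Tnfrsf12a and Axl. They were picked by symbol after Ctgf, Emp1 and Igfbp3 had been seen higher in these data, so their own differences are given as a description and support nothing. Each had 1 entry in each of the 2 deposited tables, 9 of 23983 entries. Ctgf and Cyr61 are the older symbols of Ccn2 and Ccn1.

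RNA was sequenced from cortex and subcortex of mice at postnatal day 0 (P0) in 12 libraries, 3 for each of 4 groups. The wild-type (WT) groups and the groups with a vascular knockout of Reck (vKO) were all of mixed strain. The vKO source is labelled Reck flex2/Δex1; Tie2Cre, and Tie2-Cre is active in endothelial cells and in blood lineages. The vKO mice thus also carry a Δex1 allele that the labels do not tie to Cre. The libraries were made from whole pieces of tissue, in which fewer cells of a type and less RNA per cell cannot be told apart. The tables hold 1 FPKM value per gene and group, a read density scaled by transcript length and by sequencing depth. Whether each library is a separate mouse is not stated in the labels. No spread between replicates can therefore be given, and the depth is unknown. A gene is called here where the q-value of the authors' deposited table is under 0.05, and "rose" and "fell" are used of called genes only.

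YAP and its relative TAZ are co-activators that the Hippo kinases hold in the cytoplasm of crowded cells. When cells stretch, spread or lose their neighbours, YAP enters the nucleus and binds TEAD transcription factors at sites with the core GGAATG. Ctgf, Cyr61, Ankrd1 and Amotl2 are among the best known targets of this pathway, and Axl and Igfbp3 have been listed as targets in other cells. Thbs1, Emp1 and Tnfrsf12a are genes of wounded, regenerating or remodelling tissue. In newborn cortex Ctgf is also a marker of subplate neurons, which lie beneath the cortical plate.

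Promoters were searched because a TEAD site is the sequence through which YAP is known to reach its targets. The RefSeq promoter table (GRCm38.p6, the build named mm10, 250 bases before to 50 after the start site) held 7 of the 9 genes, and Ctgf and Thbs1 were not in it. Shown in full, 5′ to 3′ on the gene's strand, are the promoters of the 3 called genes with an entry: Cyr61 (chr3:145649936-145650235, minus strand), Emp1 (the first of 2 entries, chr6:135362681-135362980, plus strand) and Igfbp3 (chr11:7213874-7214173, minus strand). Capitals mark matches to the TEAD core GGAATG or its reverse complement, to the AP-1 site TGANTCA and to the TATA box TATAAA.

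Cyr61: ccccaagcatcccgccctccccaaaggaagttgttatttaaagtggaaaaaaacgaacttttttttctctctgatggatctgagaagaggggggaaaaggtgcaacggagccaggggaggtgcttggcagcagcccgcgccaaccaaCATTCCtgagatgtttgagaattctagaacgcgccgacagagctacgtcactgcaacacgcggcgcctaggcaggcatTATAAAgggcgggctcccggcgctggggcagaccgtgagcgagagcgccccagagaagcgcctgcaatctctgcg

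Emp1: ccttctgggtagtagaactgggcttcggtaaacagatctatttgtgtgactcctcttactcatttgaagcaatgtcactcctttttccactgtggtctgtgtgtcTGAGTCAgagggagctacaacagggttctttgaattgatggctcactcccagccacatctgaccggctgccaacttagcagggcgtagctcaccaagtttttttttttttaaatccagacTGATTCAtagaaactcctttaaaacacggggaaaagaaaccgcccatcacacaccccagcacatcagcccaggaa

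Igfbp3: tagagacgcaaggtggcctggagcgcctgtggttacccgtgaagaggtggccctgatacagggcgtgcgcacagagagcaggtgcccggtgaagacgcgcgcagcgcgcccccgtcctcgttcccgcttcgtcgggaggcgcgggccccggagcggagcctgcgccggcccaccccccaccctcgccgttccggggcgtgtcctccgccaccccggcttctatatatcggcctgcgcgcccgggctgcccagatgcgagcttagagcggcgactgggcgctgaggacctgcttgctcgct

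The Cyr61 promoter held 1 TEAD core on its minus strand, at -103 to -98 from the start site, and a TATA box at -25 to -20. Emp1 held 2 AP-1 sites, TGAGTCA at -145 to -139 and TGATTCA at -25 to -19, and no TEAD core. Its second entry (chr6:135367243-135367542) held no match, and neither did Igfbp3 or Tnfrsf12a. TEAD cores also lay in the promoters of Amotl2, Axl and Ankrd1, shown here as 30-base windows with the core in capitals, since these carry the site without a call in either tissue.

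Amotl2 (chr9:102717727-102717756, plus strand): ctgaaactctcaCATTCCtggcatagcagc

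Axl (chr7:25788949-25788978, minus strand): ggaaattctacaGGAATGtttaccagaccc

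Ankrd1, the farther site (chr19:36120037-36120066, minus strand): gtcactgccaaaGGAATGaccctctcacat

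Ankrd1, the nearer site (chr19:36119950-36119979, minus strand): gacactaagtctGGAATGaaaattcacctg

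In all, 4 of the 7 genes with an entry (57.1%) held a TEAD core on either strand, against 16.6% of the 27025 genes in the promoter table. AP-1 sites were found in 1 of the 7, against 9.0% of genes, and TATAAA in 1 of the 7, against 15.7%. The CArG box, the site of serum response factor SRF, was found in 0 of the 7, against 1.81% of genes. The motifs do not overlap one another in these windows. A match is a string of letters in this window and was not tested as a binding site, and several of these genes are on the list because they are known YAP targets. Of the 4 genes with a TEAD core, Cyr61 was called in cortex, Amotl2 and Axl were not called in either tissue, and Ankrd1 was too low to be tested.

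Levels of the 9 genes ranged from 0 to 19.6 FPKM in cortex and from 0.0579 to 20.6 in subcortex. The authors tested 8 of them in each tissue and marked Ankrd1 as too low. In cortex 3 rose and 1 fell in vKO: Ctgf, Cyr61 and Emp1 were higher and Thbs1 was lower in the authors' deposited table. Over all 13594 tested entries of cortex 8.15% were called higher and 11.3% lower, 19.5% in all, and 11.2% were called and differed at least 1.5-fold. In subcortex Ctgf, Emp1 and Igfbp3 rose and 0 fell, where 0.451% of 13735 tested entries were called higher, 0.262% lower and 0.714% in either direction. All 98 calls of subcortex also differed at least 1.5-fold (0.714%). The median log2((vKO FPKM + 1)/(WT FPKM + 1)), the ratio used throughout, was 0.39 over the 8 tested genes in cortex (0.29 with a trend with transcript length and GC content removed) and 0.43 in subcortex (0.40), against 0.00 over all tested entries of each tissue. In each tissue 6 of the 8 ratios were above 0 and 2 below. Without adjustment, 5 of the 8 had a deposited p-value under 0.05 in cortex (32.1% of all tested entries) and 5 in subcortex (6.31%). Ctgf and Emp1 were called in both tissues, Cyr61 and Thbs1 in cortex and Igfbp3 in subcortex, and whether the differences vary between the tissues was not tested.

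**Figure D1:**
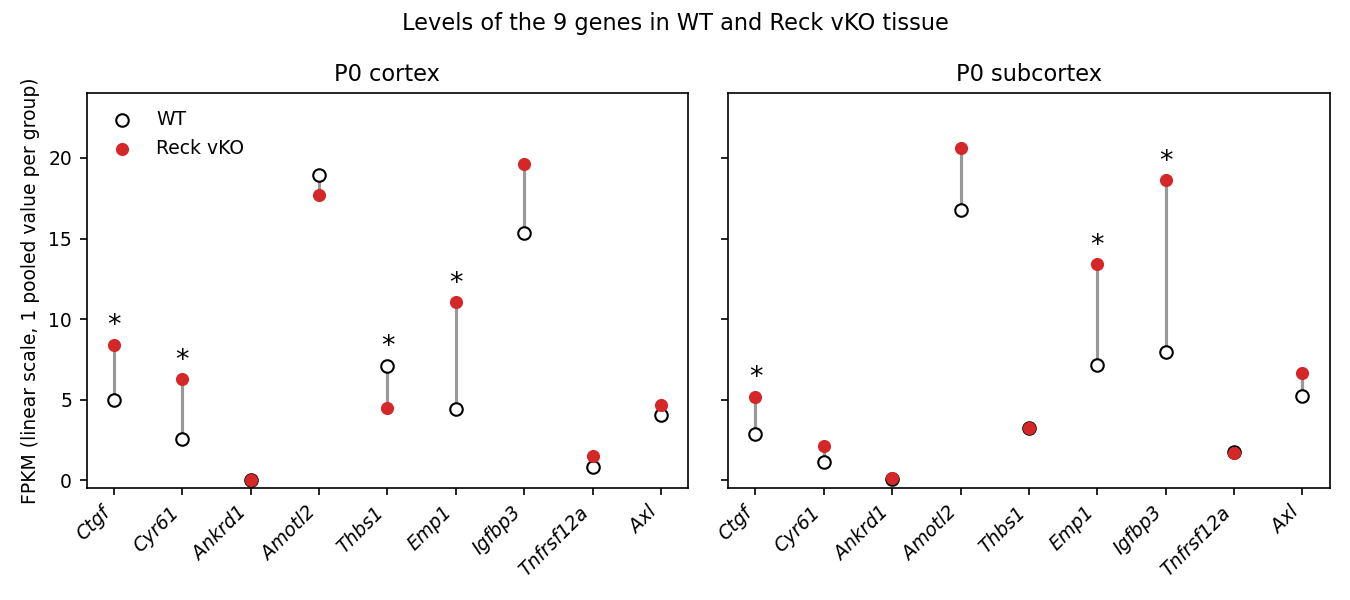
FPKM of each gene (vertical axis, linear) in WT (open circles) and Reck vKO (red circles), with cortex on the left and subcortex on the right; each circle is 1 pooled value of 3 libraries, and a star marks a call in the authors' deposited table. Amotl2 and Igfbp3 stand highest and Ankrd1 lies at or near 0, and the longest gap is that of Emp1 in cortex (4.39 to 11.0) and that of Igfbp3 in subcortex (7.97 to 18.6).

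Ctgf and Cyr61 encode CCN proteins, which are secreted into the matrix and bind integrins and growth factors. RNA of both was called higher in vKO cortex, and that of Ctgf also in subcortex. Ctgf (chromosome 10, 24595442 to 24598682, 4 exons) stood at 4.98 FPKM in WT cortex and 8.41 in vKO cortex, a 1.69-fold level and a ratio of 0.65 (q = 0.000806 in the authors' deposited table). Its subcortex levels were 2.89 FPKM in WT and 5.18 in vKO, a 1.80-fold level and a ratio of 0.67 (q = 0.0323 in the authors' deposited table). The fold was thus of like size in both tissues, while both levels were higher in the cortex table. The tables come from separate comparisons, so levels across them are only set side by side. The antisense transcript Gm15270 overlaps 352 of the 2490 exon bases of Ctgf, and whether the authors counted reads by strand is not stated in the sources used here.

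Cyr61 (chromosome 3, 145646971 to 145649985, 5 exons), a rapidly induced relative of Ctgf, had 2.56 FPKM in the WT and 6.29 in the vKO cortex, 2.46-fold, at a ratio of 1.03 (q = 0.000806 in the authors' deposited table). In subcortex its level was 1.13 FPKM in WT and 2.15 in vKO, 1.89-fold, with a ratio of 0.56. That difference, at p = 0.0035 and q = 0.232 in the authors' deposited table, was not called. The folds of Ctgf and Cyr61 in subcortex were close, at 1.80 and 1.89, and Cyr61 had the lower level in each group. Only 1.05% of tested entries had a higher ratio than Cyr61 in cortex, and 1.32% in subcortex. For Ctgf these shares were 3.07% and 0.837%.

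Thbs1 encodes thrombospondin 1, a large secreted glycoprotein that restrains vessel growth and can activate latent TGF-beta. It was the one gene of the 9 that fell. Thbs1 (chromosome 2, 118111922 to 118127133, 22 exons) went from 7.11 FPKM in WT to 4.50 in vKO cortex, a ratio of -0.56 (q = 0.000806 in the authors' deposited table). Its subcortex levels were 3.23 FPKM in WT and 3.22 in vKO (p = 0.994 in the authors' deposited table). In WT cortex Thbs1 was the third highest of the 9, above Ctgf, Emp1 and Cyr61, and in vKO cortex it was below all of these. A lincRNA on the other strand, Gm29233, overlaps 187 of its 5848 exon bases.

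Igfbp3 is a secreted carrier of insulin-like growth factors that limits their access to the receptor. Its entry (chromosome 11, 7206091 to 7213923, 5 exons) had the highest ratio of the 9 in subcortex, where it rose from 7.97 FPKM in WT to 18.6 in vKO, 2.34-fold, at a ratio of 1.13 (q = 0.0104 in the authors' deposited table). It ranked 46 from the top among the tested entries of subcortex. In cortex the WT level was already 15.3 FPKM and the vKO level 19.6, a ratio of 0.34 listed with p = 0.023 and q = 0.092 in the authors' deposited table, and it was not called. The vKO levels in both tables were near each other, and the WT levels were not.

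Emp1 encodes epithelial membrane protein 1, a small protein with several membrane spans in the family of Pmp22. It had the highest ratio of the 9 in cortex. Emp1 (chromosome 6, 135362931 to 135383173, 6 exons) rose from 4.39 to 11.0 FPKM in cortex, 2.51-fold, at a ratio of 1.16 (q = 0.000806 in the authors' deposited table). It rose in subcortex as well, from 7.17 to 13.4 FPKM, 1.87-fold, at a ratio of 0.82 (q = 0.0104 in the authors' deposited table). It ranked 116 from the top of the tested entries in cortex and 75 in subcortex.

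The receptors Axl and Tnfrsf12a were not called in either tissue. Axl, a receptor tyrosine kinase that binds Gas6 and helps cells to engulf dying neighbours (chromosome 7, 25756500 to 25788733, 20 exons), had 4.03 FPKM in the WT and 4.64 in the vKO cortex, a ratio of 0.16 (p = 0.232 in the authors' deposited table). Its subcortex levels were 5.22 and 6.68 FPKM, a ratio of 0.30 listed with p = 0.0466 and q = 0.773 in the authors' deposited table. Tnfrsf12a, the receptor of the cytokine TWEAK, had 0.838 FPKM in the WT and 1.504 in the vKO cortex (p = 0.426 in the authors' deposited table). Its subcortex levels were 1.76 and 1.72 FPKM (p = 0.973 in the authors' deposited table). Its 1.79-fold level in cortex was as large as that of Ctgf, but only 3.55% of tested entries of cortex had a lower level. Its interval (chromosome 17, 23660523 to 23677449) is shared in the tables with Ccdc64b, Hcfc1r1 and Thoc6, and Hcfc1r1 had 21.05 FPKM in the WT and 29.2 in the vKO cortex.

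Amotl2 and Ankrd1 act inside the cell. Amotl2, a protein of cell junctions that binds YAP and keeps it from the nucleus (chromosome 9, 102717804 to 102733417, 10 exons), was the most abundant of the 9 in WT cortex and in both subcortex groups. It had 19.0 FPKM in the WT and 17.7 in the vKO cortex, a ratio of -0.10 (p = 0.500 in the authors' deposited table). Its subcortex levels were 16.8 and 20.6 FPKM, a ratio of 0.28 (p = 0.0753 in the authors' deposited table). Ankrd1, an ankyrin repeat protein of muscle nuclei and sarcomeres that stretch induces (chromosome 19, 36111965 to 36119844, 9 exons), was listed at 0 in WT cortex and at 0.0138 FPKM in vKO cortex. It had 0.0579 and 0.123 FPKM in subcortex, and no test was made in either tissue. None of the 9 genes matched a transcript of another gene at 95% identity over 200 bases or more.

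By level, the order in WT cortex was Amotl2, Igfbp3, Thbs1, Ctgf, Emp1, Axl, Cyr61, Tnfrsf12a and Ankrd1, and in vKO cortex it was Igfbp3, Amotl2, Emp1, Ctgf, Cyr61, Axl, Thbs1, Tnfrsf12a and Ankrd1. In WT subcortex the order was Amotl2, Igfbp3, Emp1, Axl, Thbs1, Ctgf, Tnfrsf12a, Cyr61 and Ankrd1. In vKO subcortex Ctgf stood above Thbs1 and Cyr61 above Tnfrsf12a, and the rest kept that order. With 1 value per group, no neighbours in these orders can be said to differ.

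**Figure D2:**
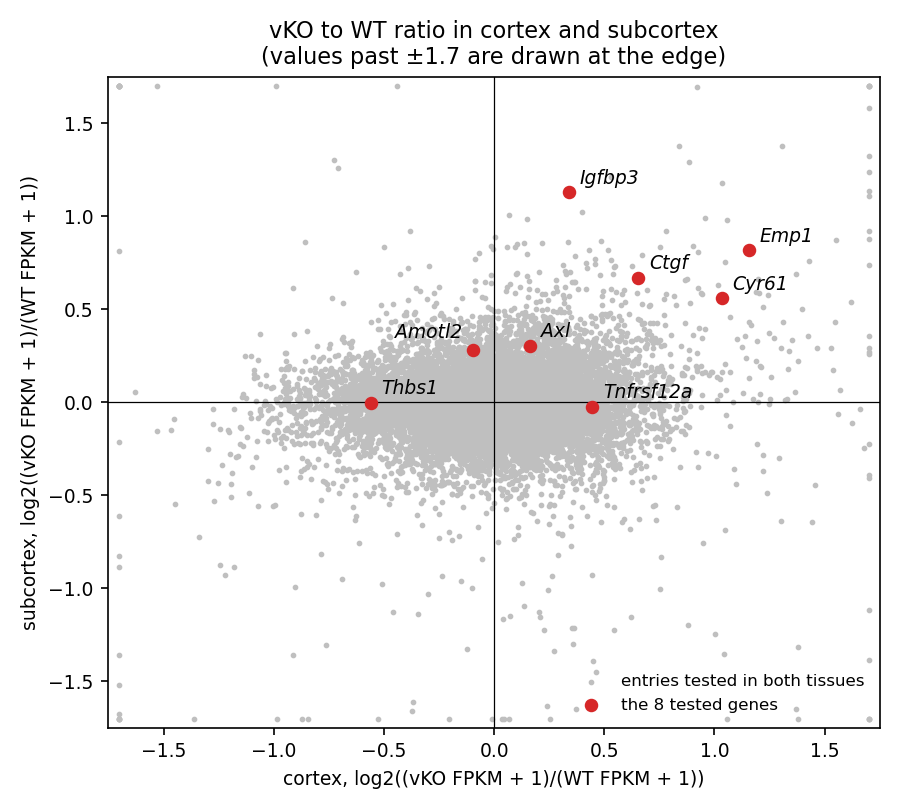
Ratio log2((vKO FPKM + 1)/(WT FPKM + 1)) in cortex (horizontal axis) against subcortex (vertical axis) for 13168 entries tested in both tissues (grey) and the 8 tested genes (red, named). Emp1, Cyr61, Ctgf, Igfbp3 and Axl lie above 0 on both axes, Thbs1 lies at -0.56 in cortex and at 0.00 in subcortex, and 59 entries beyond 1.7 are drawn at the edge.

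The ratio of vKO to WT varied with transcript length in cortex, which bears on the values above. The source of this trend was not tested. Across 13458 tested cortex entries with a known transcript, the ratio and transcript length had a Spearman correlation of -0.551 (entries are not replicates), and entries called lower had a median length of 6190 bases against 1559 for those called higher. In subcortex the correlation was 0.02 over 13607 entries. When the median ratio of entries of like length and GC content was subtracted, the cortex ratios became 0.53 for Ctgf, 0.86 for Cyr61 and 1.09 for Emp1. Thbs1, with a transcript of 5848 bases, went from -0.56 to -0.33. Tnfrsf12a, with the shortest transcript of the 9 at 984 bases, went from 0.45 to 0.11, while Axl went from 0.16 to 0.30 and Amotl2 from -0.10 to 0.06, a change of sign. Igfbp3 had 0.27 in cortex with the trend removed. In subcortex the values with the trend removed were 0.68 for Ctgf, 0.54 for Cyr61, 0.87 for Emp1 and 1.11 for Igfbp3.

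**Figure D3:**
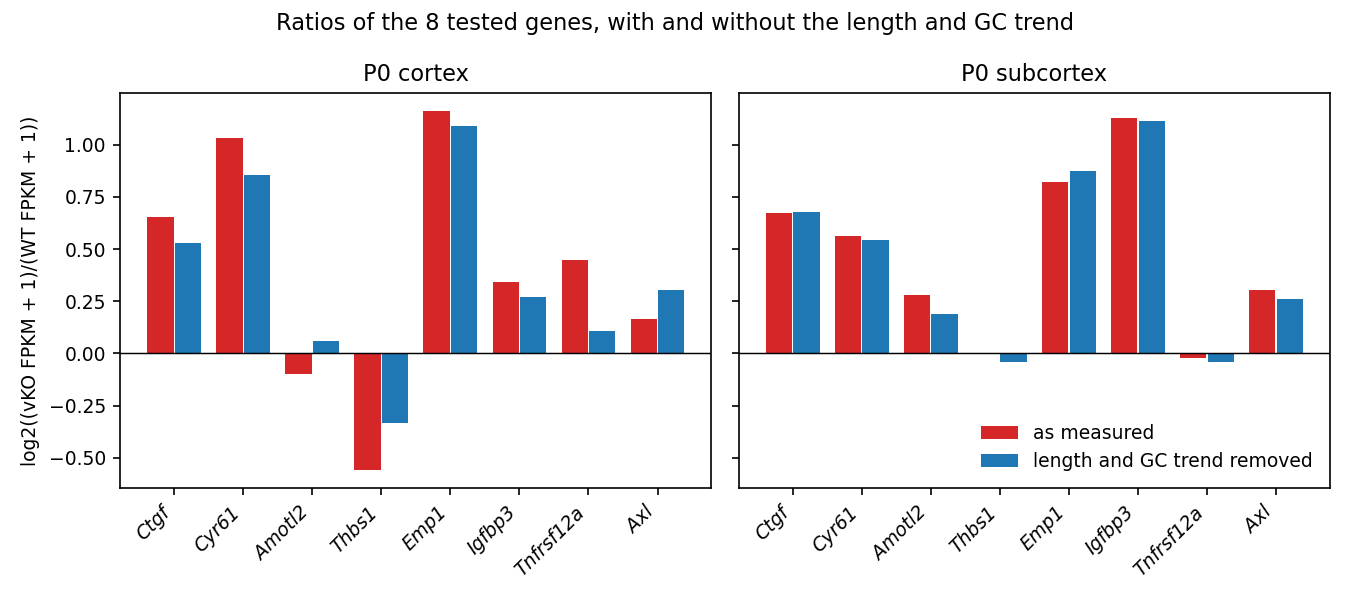
Ratio log2((vKO FPKM + 1)/(WT FPKM + 1)) of the 8 tested genes (vertical axis) in cortex (left) and subcortex (right), as measured (red bars) and with the trend with transcript length and GC content removed (blue bars). The cortex bars of Thbs1 and Tnfrsf12a shorten most, from -0.56 to -0.33 and from 0.45 to 0.11, and among the subcortex bars that of Amotl2 moves most, from 0.28 to 0.19.

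Of 28 tested Hippo pathway regulators, 2 rose (7.14%) and 4 fell (14.3%) in cortex as called in the authors' deposited table, near the 8.15% and 11.3% over all tested cortex entries. The median ratio over all 28 was -0.07, or 0.12 without the length and GC trend. Tead2, one of the DNA-binding partners of YAP, rose from 10.4 to 15.0 FPKM (0.49, or 0.64 without the trend). The Hippo kinase Stk3 rose from 7.25 to 10.1 FPKM (0.43, or 0.28 without the trend). Tead1, another partner, fell from 5.52 to 2.42 FPKM (-0.93, or -0.55 without the trend). The giant cadherins Dchs1 and Fat4, a ligand and receptor pair upstream of Hippo, fell from 34.5 to 20.2 FPKM (-0.75) and from 34.6 to 21.5 (-0.66). Their transcripts measure 10754 and 16109 bases, and with the trend removed the ratios were -0.17 and -0.20. Lats1, the kinase that phosphorylates YAP, fell from 21.2 to 15.5 FPKM (-0.43, or -0.19 without the trend). Named after their values were seen, Yap1 had 5.19 FPKM in the WT and 5.98 in the vKO cortex and Wwtr1, which encodes TAZ, 11.2 and 12.1, and neither was called. In subcortex 0 of 28 regulators were called in the authors' deposited table and 1 had an unadjusted p-value under 0.05. The median there was 0.03.

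Of 15 other genes listed as YAP targets and tested in cortex, 1 rose (6.67%) and 3 fell (20%) as called in the authors' deposited table. The shares over all tested cortex entries were 8.15% and 11.3%, and with 15 genes nothing is read from the difference. The median over all 15 was -0.09, and 0.13 with the trend removed, both the values of Lats2. Lats2 and Ptpn14 also count among the Hippo regulators above, so the lists are not separate. The gene that rose was F3, which encodes tissue factor, the trigger of clotting, from 3.44 to 5.55 FPKM (0.56, or 0.33 without the trend). Rbms3, an RNA-binding protein, fell from 7.46 to 4.57 FPKM (-0.60, or -0.38 without the trend). Asap1, a regulator of small GTPases, fell from 9.31 to 6.71 FPKM (-0.42, or -0.19 without the trend). Arhgef17, another such regulator, fell from 7.33 to 5.46 FPKM (-0.37), a direction that turned to 0.19 without the trend. In subcortex 0 of 14 were called in the authors' deposited table and 0 had an unadjusted p-value under 0.05, though 13 of the 14 ratios were above 0, with a median of 0.11.

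SRF and its co-activators of the MRTF family answer to actin and share targets with YAP. Of 11 tested genes of this list, 3 rose (27.3%) and 1 fell (9.09%) in cortex as called in the authors' deposited table, against 8.15% and 11.3% over all tested cortex entries. The median over all 11 was 0.37 (0.25 with the trend removed). Tropomyosin 4, Tpm4, rose from 50.1 to 80.0 FPKM (0.67, or 0.44 without the trend). The myosin light chain gene Myl9 rose from 10.9 to 16.8 FPKM (0.59, or 0.25 without the trend). Smooth muscle actin, Acta2, rose from 1.58 to 2.70 FPKM (0.52, or 0.35 without the trend). Vcl, which encodes the adhesion protein vinculin, fell from 8.18 to 5.80 FPKM (-0.43, or -0.21 without the trend). In subcortex Acta2 was the 1 called of 11, at a ratio of 0.82, from 1.14 to 2.77 FPKM (q = 0.0104 in the authors' deposited table). Over all tested subcortex entries 0.451% were called higher and 0.262% lower. The list's median was 0.13.

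Of 13 tested injury response genes, 5 rose (38.5%) and 0 fell in cortex as called in the authors' deposited table, against 8.15% and 11.3% over all tested cortex entries. The median over all 13 was 0.28, or 0.35 without the trend. Spp1, which encodes osteopontin, a product of activated phagocytes, rose from 8.88 to 26.1 FPKM (1.46, or 1.21 without the trend). The annexin genes Anxa2 and Anxa1 rose from 21.5 to 40.0 FPKM (0.87, or 0.57 without the trend) and from 2.42 to 5.21 (0.86, or 0.61). The intermediate filament gene Vim rose from 99.9 to 171 FPKM (0.77, or 0.59 without the trend). Tgfbi, a matrix protein induced by TGF-beta, rose from 1.75 to 3.07 FPKM (0.56, or 0.49 without the trend). In subcortex 0 of 12 were called in the authors' deposited table, 4 had an unadjusted p-value under 0.05, and the median was 0.25.

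Among relatives and partners of the 9 genes, 3 of 20 rose (15%) and 2 fell (10%) in cortex as called in the authors' deposited table, against 8.15% and 11.3% over all tested cortex entries. The median over all 20 was 0.23 (0.17 with the trend removed). Pmp22, the peripheral myelin protein of the Emp1 family, rose from 6.13 to 9.66 FPKM (0.58, or 0.41 without the trend). The carriers Igfbp6 and Igfbp2 rose from 1.07 to 2.50 FPKM (0.76, or 0.38 without the trend) and from 91.1 to 127 (0.47, or 0.28). Igf1r, the receptor whose ligands these proteins bind, fell from 18.8 to 9.29 FPKM (-0.95, or -0.52 without the trend). Thbs3 fell like Thbs1, from 13.7 to 9.96 FPKM (-0.42, or -0.37 without the trend). In subcortex 0 of 20 were called in the authors' deposited table and 2 had an unadjusted p-value under 0.05, 1 higher in vKO and 1 lower. The median there was 0.07.

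**Figure D4:**
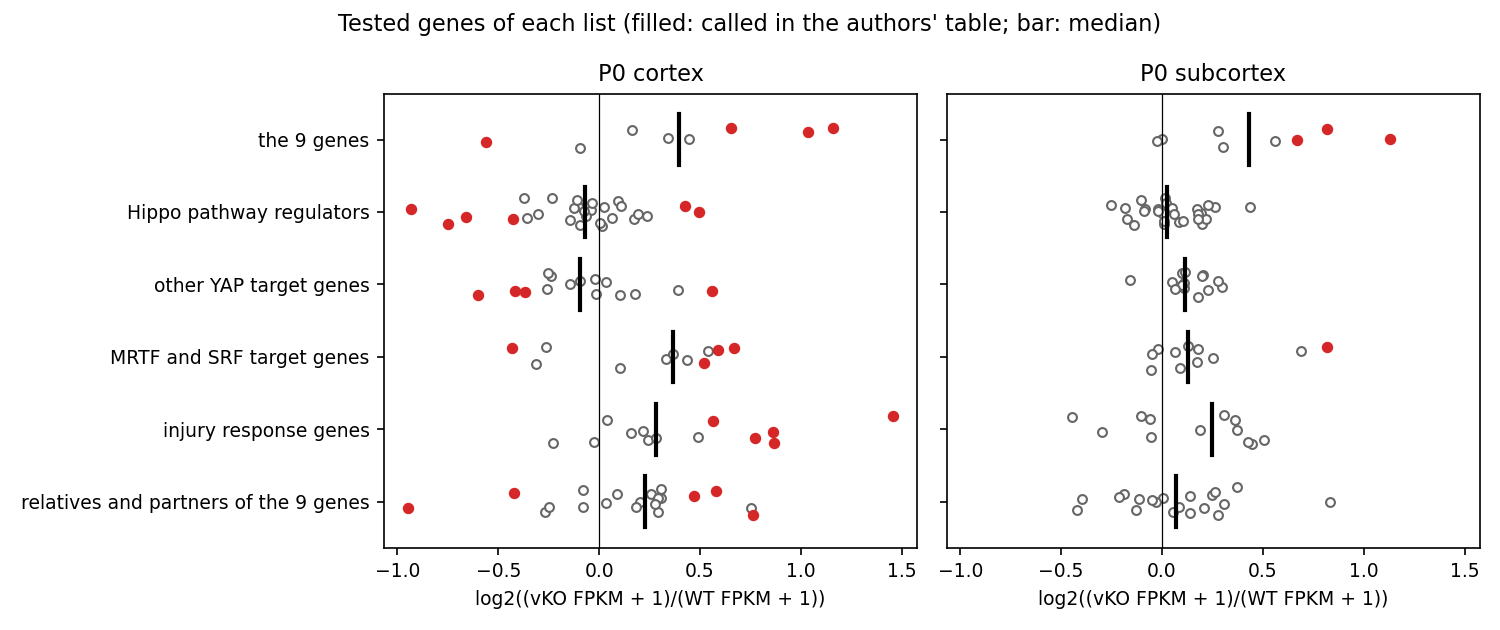
Ratio log2((vKO FPKM + 1)/(WT FPKM + 1)) of each tested gene (horizontal axis) for the 9 genes and 5 related lists, in cortex (left) and subcortex (right); filled red points were called in the authors' deposited table, open points were not, and black bars are medians. In subcortex the called points are Ctgf, Emp1, Igfbp3 and Acta2, and in cortex the medians of the Hippo regulators and the other YAP targets lie just below 0.

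Markers of several cell types differed between WT and vKO beside these genes. Over all tested entries 8.15% were called higher and 11.3% lower in cortex, and 0.451% and 0.262% in subcortex. In cortex the summed level of 5 macrophage markers was 12.5 FPKM in WT and 68.1 in vKO, with 4 of 5 called higher, and that of 5 microglial markers 20.2 and 44.6, with 3 of 5 called higher. In subcortex these sums were 13.1 and 18.3, with 1 of 4 tested called higher, and 34.2 and 33.2, with 0 of 5 called. Meningeal fibroblast markers summed to 51.9 FPKM in the WT and 59.6 in the vKO cortex, with 2 of 5 called higher, and to 45.8 and 55.1 in subcortex, with 0 of 5 called. Endothelial markers summed to 75.4 and 49.8 in cortex, with 2 of 5 called lower, and to 60.5 and 65.6 in subcortex, with 2 of 5 called higher. Cldn5, a tight junction gene, was the largest part of each of these sums, at 46.8 FPKM in the WT and 24.6 in the vKO cortex and 42.1 and 37.6 in subcortex. The median ratio of the 5 was -0.02 in cortex and 0.44 in subcortex, where the adhesion genes Pecam1 and Cdh5 rose from 5.12 to 10.1 FPKM and from 3.62 to 6.45 in the authors' deposited table. Pericyte markers summed to 43.7 and 47.1 in cortex, with 1 of 5 called higher and 1 lower, and to 41.5 and 45.6 in subcortex, with 1 of 5 called higher. Rgs5 made up most of the pericyte sums, at 27.9 FPKM in the WT and 25.8 in the vKO subcortex. The median ratio of the 5 was -0.15 in cortex and 0.42 in subcortex, where 4 of 5 ratios were above 0 and 3 had an unadjusted p-value under 0.05. These subcortex medians of vessel markers stand beside 0.43 for the 8 tested genes. Radial glia and astrocyte markers summed to 824 and 1065 in cortex, with 1 of 5 called higher and 1 lower. In subcortex they summed to 1743 and 1522, with 0 of 5 called. Fabp7 made up most of these sums, at 723 FPKM in the WT and 965 in the vKO cortex and 1598 and 1366 in subcortex. It was the gene called higher in cortex, but its transcript has 880 bases and its ratio there was 0.42, or 0.02 without the trend. The median cortex ratio of the 5 was 0.12, or -0.08 without the trend. No marker was listed at 0 in any group. Their part in the levels of the 9 genes was not tested.

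The labelled tissues carried their markers. Cortical markers summed to 244 FPKM in the WT and 282 in the vKO cortex, against 8.59 and 8.13 in subcortex. Subcortical markers summed to 89.2 FPKM in the WT and 83.9 in the vKO subcortex, against 11.7 and 5.90 in cortex. Of the 3 tested in cortex, 2 were called lower in vKO and 0 higher in the authors' deposited table. The shares over all tested cortex entries were 11.3% and 8.15%. The 2 called lower were Tcf7l2, from 4.71 to 1.07 FPKM, and Lhx9, from 3.76 to 2.29. What this difference between the cortex groups means for the cortex ratios was not tested. Neuronal markers summed to between 1713 and 1943 FPKM in the 4 groups. Erythroid markers summed to 62.0 FPKM in the WT and 649 in the vKO cortex, and to 105 and 81.6 in subcortex. The joint entry of Hba-a1 and Hba-a2 made up most of these sums and was not called in either tissue. It had 56.0 FPKM in the WT and 613 in the vKO cortex. Reck itself had 2.91 FPKM in the WT and 3.23 in the vKO cortex and 2.37 and 3.49 in subcortex, and was not called. A value over the whole gene in whole tissue does not check a deletion in vessels. Xist, the RNA that coats the inactive X chromosome in females, had 0.0417 FPKM in the WT and 18.6 in the vKO cortex, and 0.0369 and 10.2 in subcortex. The Y-linked gene Eif2s3y had 30.4 FPKM in the WT and 15.8 in the vKO cortex, and 27.6 and 13.3 in subcortex. Both genes were thus present in the pooled vKO values, while Xist was near 0 in WT. With 1 value per group, this difference in sex makeup and genotype cannot be told apart. All 9 genes lie on autosomes.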

How the data were processed

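RNA of P0 mouse cortex and subcortex was sequenced in 12 libraries, from total RNA with a kit that keeps strand, per the labels' protocols. The submitters' processing notes name HISAT2 2.0.1, Cufflinks 2.2.1, Cuffdiff and mm10. The annotation and the order of steps are not given in the sources used here. The deposited FPKM values are 1 per gene and group, computed by the authors from all replicates. Columns named by W and M were read as WT and vKO. The p-values and q-values were deposited by the authors from a test of their own. The lowest deposited p-value is 5e-05. A Benjamini-Hochberg adjustment of the tested entries gave the deposited q-values to within 5.2e-07. Entries marked by the authors as low or lacking data took part in no count.

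Ratios were recomputed with a pseudocount of 1, which understates changes at low levels. Positions are those of the tables, counted from 1. Transcript length, GC content and overlaps came from GENCODE M21, with 99.0% of tested cortex entries matched. The trend was removed with medians of 10 length classes by 10 GC classes, a step tested on simulated data. Near-identical copies were sought with blastn 2.17.0.

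The 9 genes, the lists and the alternatives were chosen with earlier results of these data known, and processing with a trend removed for list medians was added after their values were seen. Named list genes are those called in either tissue, at most 6 per list and tissue by q-value. For each of the 8 tested genes the 2 entries with the nearest pattern over the 4 group values were taken, leaving out predicted models and sex-linked genes.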

Additional observations from a re-analysis of the deposited data

How the results depend on the processing

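No paired analysis was possible because the tables hold 1 value per group, and leaving out a replicate and the replicate block were not run for the same reason. At a q-value under 0.01 of the authors' deposited table, the cortex calls were again 4. In subcortex 0 genes of the 9 were called, with Emp1 and Igfbp3 at 0.0104 and Ctgf at 0.0323. That outcome was fixed in advance, since 0.0104 goes with the lowest deposited subcortex p-value, 5e-05. No subcortex entry could thus pass 0.01, and nothing is read from it about these genes. A minimum of 1.5-fold, or adjustment over entries with an FPKM of at least 1, gave 4 and 3 calls again, the same genes. The 1.5-fold minimum could change nothing in subcortex, where all 98 calls differed by at least that much. After subtraction of the length and GC trend, the cortex medians of the Hippo regulators and of the other YAP targets changed sign, to 0.12 and 0.13. Both lists hold Lats2 and Ptpn14. Ratios of the 9 genes recomputed with another pseudocount, with none, with centring or without the trend kept their sign in 68 instances and changed it in 1, Amotl2 in cortex, which became 0.06. Unknown depth limits what can be said of Ankrd1 and Tnfrsf12a.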

Other observations

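Genes with the nearest pattern to each of the 8 tested genes were sought among 11878 entries, by the Euclidean distance between the 4 group values of log2(FPKM + 1), each centred on its own mean. With 4 values, nearness is a description. Calls like those of the matched gene follow in part from this choice and are not a result about the neighbours. Nearest to Emp1 was Fgfbp1, a secreted carrier of fibroblast growth factors, at a distance of 0.19, with 2.89 FPKM in WT cortex, 7.95 in vKO cortex, and 5.09 and 8.16 in subcortex. The next was Tm4sf1, a membrane protein of endothelial and other cells, with 2.56 and 5.76 FPKM in cortex and 3.92 and 6.52 in subcortex. Nearest to Cyr61 was Junb, an immediate early gene that encodes a subunit of AP-1, at 0.31, with 3.77 and 6.69 FPKM in cortex and 1.95 and 2.74 in subcortex, and then Hist1h2bk, one of a family of near-identical histone genes, at 0.34. Nearest to Ctgf were Cdc20, an activator of the anaphase ubiquitin ligase, at 0.16 and the ephrin gene Efna1 at 0.17, which had 1.85 and 3.40 FPKM in cortex and 1.01 and 2.35 in subcortex. These 6 genes were called higher in cortex in the authors' deposited table and were not called in subcortex.

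Igfbp3 was nearest to Olfml2a, an olfactomedin-like protein of the matrix, at 0.28, and to Ttc30a2 at 0.29. Both were called higher in subcortex and not called in cortex in the authors' deposited table, like Igfbp3, with Olfml2a at 0.846 FPKM in WT and 2.10 in vKO subcortex. Thbs1 was nearest to Dlgap1, a scaffold protein of synapses, at 0.04 and to the chromatin protein gene Gatad2b at 0.05, both called lower in cortex in the authors' deposited table. The genes nearest to Amotl2 were Cant1 and Aar2, those nearest to Axl were Rps6ka1 and Zfp768, and those nearest to Tnfrsf12a were Tmem53 and Slc25a39. Of these, Slc25a39 was called in cortex and the other 5 in neither tissue.

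Igfbp7, a relative of Igfbp3 that blood vessels express, was picked after its values were seen. It had 20.9 FPKM in WT cortex, 35.9 in vKO cortex, and 18.5 and 33.8 in subcortex, with p-values of 0.0485 and 0.0602 in the authors' deposited table, and was not called in either tissue.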
